A study of Mus musculus with 6 samples.

Results

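Mt1 and Mt2 encode the 2 metallothioneins of mouse liver, and they were taken as every probe set whose annotated gene symbol is Mt1 or Mt2. This gave 2 of the 12488 probe sets and 2 of the 8251 genes of the array (1 probe set each), and both were among the 4844 genes kept after a filter on dim signals. The genes were chosen by their large ratios between the circadian times in both mutants, so the levels and ratios that follow describe these arrays and are not a test. Livers of male mice, 8 to 10 weeks old, gave the total RNA for 6 one-colour arrays, 1 for each of 3 genotypes at each of 2 circadian times, CT14 (14 h, early subjective night) and CT02 (2 h, early subjective day). The groups were Clock mutant at CT14 and at CT02, Cry-deficient at CT14 and at CT02, and wild type at CT14 and at CT02. The labels name a C57BL/6 background for the wild-type mice alone. The sources used here give neither the Clock allele nor any pooling of mice. Of the Cry-deficient arrays, the label of the CT02 one names a double knockout of Cry1 and Cry2, and that of the CT14 one says only that Cry is deficient.

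Metallothioneins are small, cysteine-rich proteins that bind zinc and copper and sequester cadmium. In liver, zinc raises Mt1 and Mt2 through the transcription factor MTF1, which binds metal response elements in their promoters, and glucocorticoids, interleukin-6 and oxidative stress are known to raise them as well. Mt3 is best known from brain and Mt4 from stratified epithelia. The 4 genes are neighbours on mouse chromosome 8, in the order Mt4, Mt3, Mt2 and Mt1 in RefSeq, with the model Gm39227 between Mt3 and Mt2. Clock encodes an activator of the circadian clock, and the cryptochromes Cry1 and Cry2 are its repressors.

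The promoter windows are shown because metal response elements are the textbook control of these genes, with Mt3 beside them as the neighbour whose signal varied less. Each runs from 250 bases before to 50 bases after the gene's start, 5′ to 3′ on the plus strand of GRCm38.p6, from RefSeq. Capitals mark the core of the metal response element, TGCACNC or TGCGCNC on either strand.
Mt1, chr8:94178839-94179138: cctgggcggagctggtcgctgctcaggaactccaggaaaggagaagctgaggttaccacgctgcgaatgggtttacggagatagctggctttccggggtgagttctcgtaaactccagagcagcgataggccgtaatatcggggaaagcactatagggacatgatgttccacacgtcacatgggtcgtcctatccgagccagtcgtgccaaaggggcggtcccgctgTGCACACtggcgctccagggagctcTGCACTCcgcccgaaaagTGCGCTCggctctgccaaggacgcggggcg
Mt2, chr8:94172368-94172667: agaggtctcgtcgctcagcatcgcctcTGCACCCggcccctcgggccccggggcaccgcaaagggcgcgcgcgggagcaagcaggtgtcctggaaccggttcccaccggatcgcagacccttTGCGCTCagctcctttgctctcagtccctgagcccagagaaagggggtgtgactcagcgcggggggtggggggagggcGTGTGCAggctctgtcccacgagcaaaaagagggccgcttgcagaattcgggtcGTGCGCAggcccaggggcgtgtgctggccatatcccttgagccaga
Mt3, chr8:94152357-94152656: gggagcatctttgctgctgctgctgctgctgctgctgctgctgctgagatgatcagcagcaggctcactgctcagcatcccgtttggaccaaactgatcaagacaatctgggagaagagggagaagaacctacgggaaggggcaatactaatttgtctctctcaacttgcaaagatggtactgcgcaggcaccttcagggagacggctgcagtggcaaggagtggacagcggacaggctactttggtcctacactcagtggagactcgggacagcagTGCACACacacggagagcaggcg
Mt1 held 3 cores, beginning at -23, 3 and 21 relative to the start, and Mt2 held 4, beginning at -223, -128, -50 and 5. Mt3 held 1 core at 28, and Mt4, which is not shown, held 1 at -91. At least 1 core was present in 25.7% of the 32851 mouse windows of this length, at least 3 in 1.97% and at least 4 in 0.517%. G and C made up 60.7% of the Mt1 window and 67.7% of the Mt2 window, against a median of 52.7% over all windows. Mt2 also held 1 match to the antioxidant response element core TGACNNNGC, at -79, a motif present in 12.4% of windows. The glucocorticoid half-site AGAACA (19.0% of windows), the E-box CACGTG (7.15%) and the STAT motif TTCNNNGAA (8.30%) had no match in any of the 4 windows, searched on both strands. The start used for Mt1 lies inside the gene's annotated span, so bases upstream of its first annotated base are not all covered. The Mt1 window may thus not be the gene's main promoter. Whether the starts of the 4 genes are those used in liver was not checked. The positions, counts and missing motifs hold for these windows alone. A match describes letters only, and binding was not measured.

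The arrays were scaled to each other, and 606 scaled units, the median of all scaled values, was the floor. Values under it are printed as measured but show only that the signal was under the floor, and a fold against one is given as "at least". Because each group is a single array, no difference has a replicate check, no p-value is given, and the precision is limited by having 6 arrays. The mean deposited intensity lay between 1637 and 2486, the lowest on the Clock mutant CT02 array. The ratio of 3′ to 5′ signal, a sign of RNA quality, was 2.68 for Actb on the Clock mutant CT02 array and 2.37 for Gapdh on the Cry-deficient CT02 array, against 0.84 to 1.70 and 0.56 to 0.72 on the other arrays. The brightest Cry1 probe set, named as matching a family of sequences, read 4718 and 3845 scaled units on the Cry-deficient arrays at CT14 and CT02, against 2723 and 1833 in wild type. Cry2 read 1344 and 1185 on the Cry-deficient arrays, against 2256 and 1215 in wild type. The other Cry1 probe sets were under the floor on all 6 arrays, wild type included. Signal of the brightest Cry1 probe set and of Cry2 was thus not absent on the Cry-deficient arrays. The sources used here do not say which part of the genes the probes cover or the mutation removes, so this does not check the labels. Of 11 clock genes kept, Cry1 and Cry2 among them, 6 were at least 2-fold higher and 1 lower on the Cry-deficient array than in wild type at CT02, where 6.69% of all genes kept were that far apart in either direction, and 2 were higher and 0 lower at CT14. Bhlhe40, a clock-controlled repressor, was 8.03-fold higher and Dbp, a target of CLOCK, at least 3.03-fold higher at CT02. The Cry-deficient arrays are called Cry-labelled from here on, after their labels. Clock read 2069 and 1640 in the Clock mutant at CT14 and CT02, against 1552 and 2430 in wild type, and a change within the protein would not show in this signal.

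Mt1 and Mt2 were bright on the same pair of arrays, which came from different mutants and from opposite times. Mt1 read 13356 scaled units in the Clock mutant at CT14 and -1044 at CT02, -712 on the Cry-labelled array at CT14 and 9698 at CT02, and 1136 in wild type at CT14 and -696 at CT02. Mt2 read 14582 in the Clock mutant at CT14 and 1558 at CT02, 980 on the Cry-labelled array at CT14 and 9174 at CT02, and 1471 in wild type at CT14 and 1261 at CT02. The Clock mutant CT14 and Cry-labelled CT02 arrays were therefore high for both genes, and the other 4 arrays were low, with Mt1 under the floor on 3 of them. On the bright arrays Mt1 stood at the 96.2th and 93.3th percentiles of all probe sets, and Mt2 at the 96.9th and 92.9th. Values below 0 point to some subtraction before deposit, whose kind the sources used here do not give, and no order is read among them. In liver as a whole, fewer cells of a type and less RNA per cell cannot be told apart.

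**Figure D1:**
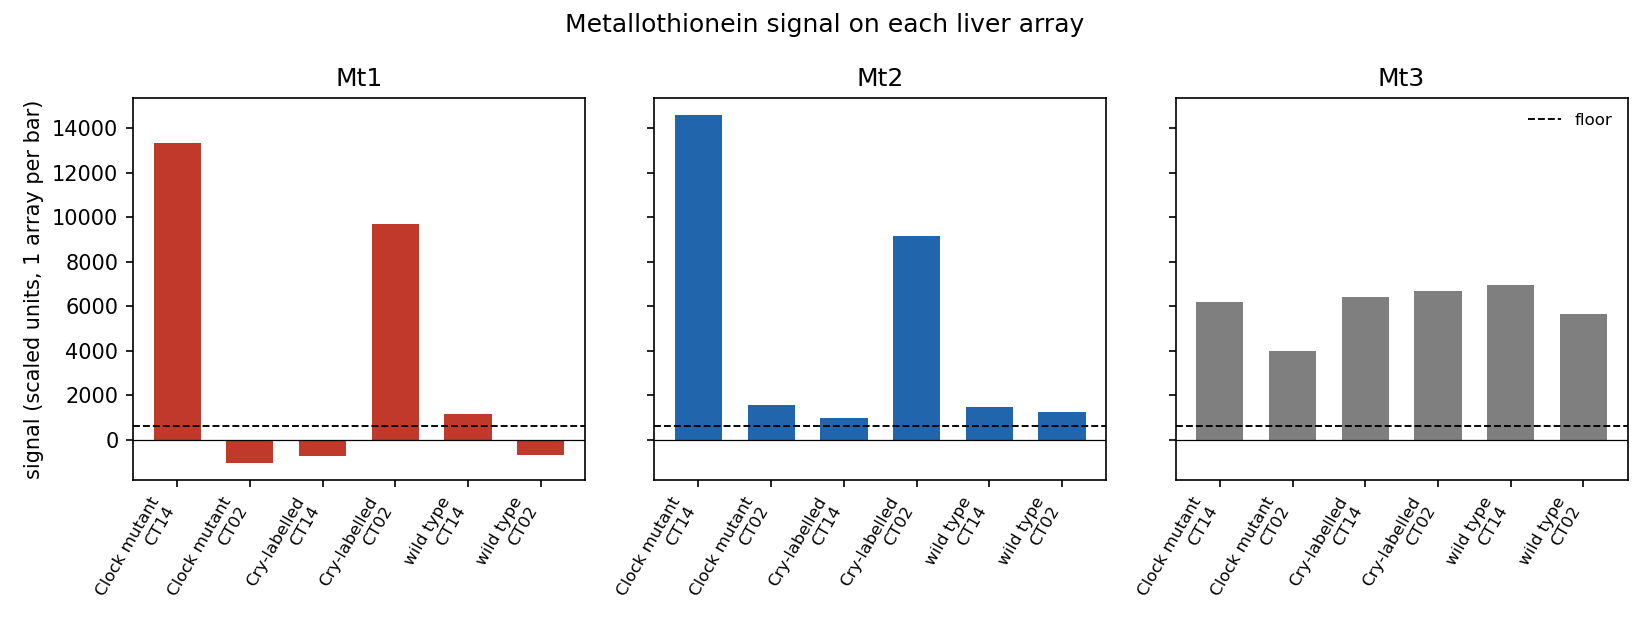
Scaled signal of Mt1, Mt2 and Mt3 on each of the 6 arrays, 1 bar per array from 0, with the floor of 606 scaled units as a dashed line. Mt1 and Mt2 are high on the Clock mutant CT14 and Cry-labelled CT02 arrays and low on the other 4, while Mt3 lies between 3971 and 6975 on all 6, and levels of different genes are not to be set against each other.

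Between the bright arrays the members differed little. Mt1 was 1.38-fold and Mt2 1.59-fold brighter in the Clock mutant at CT14 than on the Cry-labelled CT02 array. The dimmer of the bright arrays still exceeded the highest of the other 4 by 8.54-fold for Mt1 and 5.89-fold for Mt2. Among the 4844 genes kept, 3 had both arrays at least 2-fold above each of the other 4, a criterion chosen after the values were seen: Mt1, Mt2 and Pnmt, which encodes the enzyme that makes adrenaline. Pnmt read 2304 and 1362 scaled units on the Clock mutant CT14 and Cry-labelled CT02 arrays, and between -307 and 535, under the floor, on the others.

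In the Clock mutant, both metallothioneins were higher at CT14 than at CT02. Mt1 was at least 22.0-fold higher (log2 ratio at least 4.46) and Mt2 9.36-fold higher (3.23). They ranked 1 and 2 among genes higher at CT14. In this comparison 7.74% of the genes kept were at least 2-fold apart, and since the genes were chosen on this ratio nothing is read from their place against that share. Mt3 had a log2 ratio of 0.64.

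On the Cry-labelled arrays the direction was opposite. Mt1 was at least 16.0-fold lower at CT14 than at CT02 (log2 ratio at most -4.00) and Mt2 was 9.36-fold lower (-3.23). They ranked 1 and 2 among genes lower at CT14, where 5.55% of all genes kept were at least 2-fold apart in either direction. Mt3 had a log2 ratio of -0.06.

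In wild type, Mt2 differed by under 2-fold between the times, and for Mt1 only a bound could be given. Mt1 was at least 1.87-fold higher at CT14 (log2 ratio at least 0.91), a bound because its CT02 value was under the floor and the true ratio may be larger. Mt2 was 1.17-fold higher (0.22). In wild type 4.56% of the genes kept were at least 2-fold apart. The time ratio of Mt2 differed from that of wild type by 3.0 log2 units in the Clock mutant and by -3.45 on the Cry-labelled arrays. For Mt1 the difference between the Cry-labelled arrays and wild type was at most -4.91, and no size follows for the Clock mutant, where both ratios are bounds. Between the mutants, the Clock ratio exceeded the Cry-labelled one by at least 8.46 log2 units for Mt1 and by 6.45 for Mt2.

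**Figure D2:**
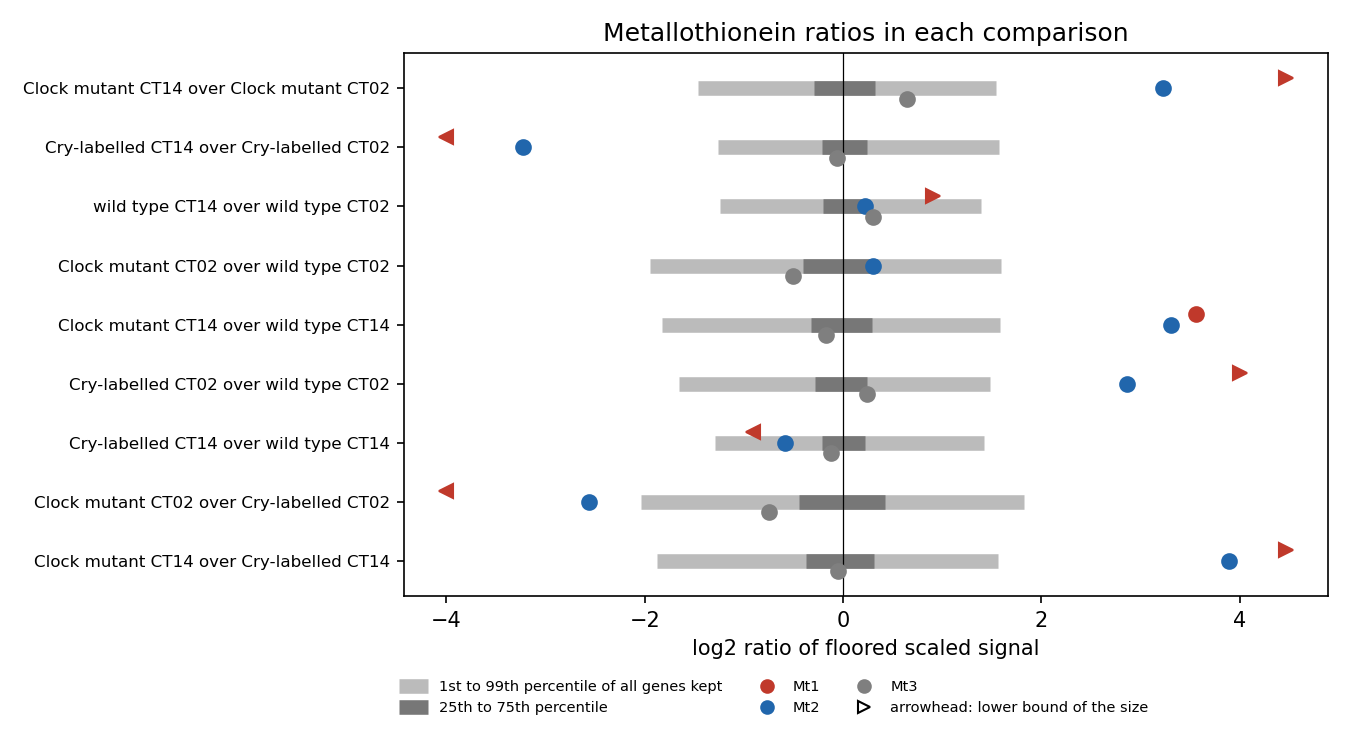
Log2 ratios of Mt1, Mt2 and Mt3 in the 9 comparisons, with arrowheads where a value under the floor makes the ratio a bound and bars for the spread of all genes kept (light, 1st to 99th percentile, dark, 25th to 75th). Mt1 and Mt2 are past 2-fold in the 6 comparisons that use the Clock mutant CT14 or the Cry-labelled CT02 array.

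Set against wild type at the same time, both genes were past 2-fold in the Clock mutant at CT14 and on the Cry-labelled array at CT02. At CT14 the Clock mutant had 11.8-fold more Mt1 signal than wild type (log2 ratio 3.56) and 9.91-fold more Mt2 signal (3.31), where 9.76% of the genes kept were at least 2-fold apart. At CT02 Mt2 was 1.24-fold higher in the Clock mutant than in wild type (0.30), Mt1 was under the floor in both, and 11.8% of genes were at least 2-fold apart. At CT02 the Cry-labelled array had at least 16.0-fold more Mt1 signal than wild type and 7.27-fold more Mt2 signal (2.86), where 6.69% of genes were at least 2-fold apart. At CT14 Mt1 was at least 1.87-fold lower (-0.91) and Mt2 1.5-fold lower (-0.59) on the Cry-labelled array than in wild type, where 4.73% of genes were at least 2-fold apart.

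Between the mutants, the order of the metallothioneins turned with the time. At CT02 the Clock mutant had at least 16.0-fold less Mt1 signal and 5.89-fold less Mt2 signal (-2.56) than the Cry-labelled array, where 16.1% of genes were at least 2-fold apart. At CT14 the Clock mutant had at least 22.0-fold more Mt1 signal and 14.9-fold more Mt2 signal (3.89), where 9.54% of genes were at least 2-fold apart. Across the 9 comparisons, both genes were at least 2-fold apart in all 6 that use one of the bright arrays. In the other 3 Mt2 was under 2-fold, while Mt1 could not be placed on either side of 2-fold, with 2 bounds of at least 1.87-fold and 1 comparison under the floor on both arrays. The 9 comparisons share arrays, so these counts are not separate evidence.

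**Figure D3:**
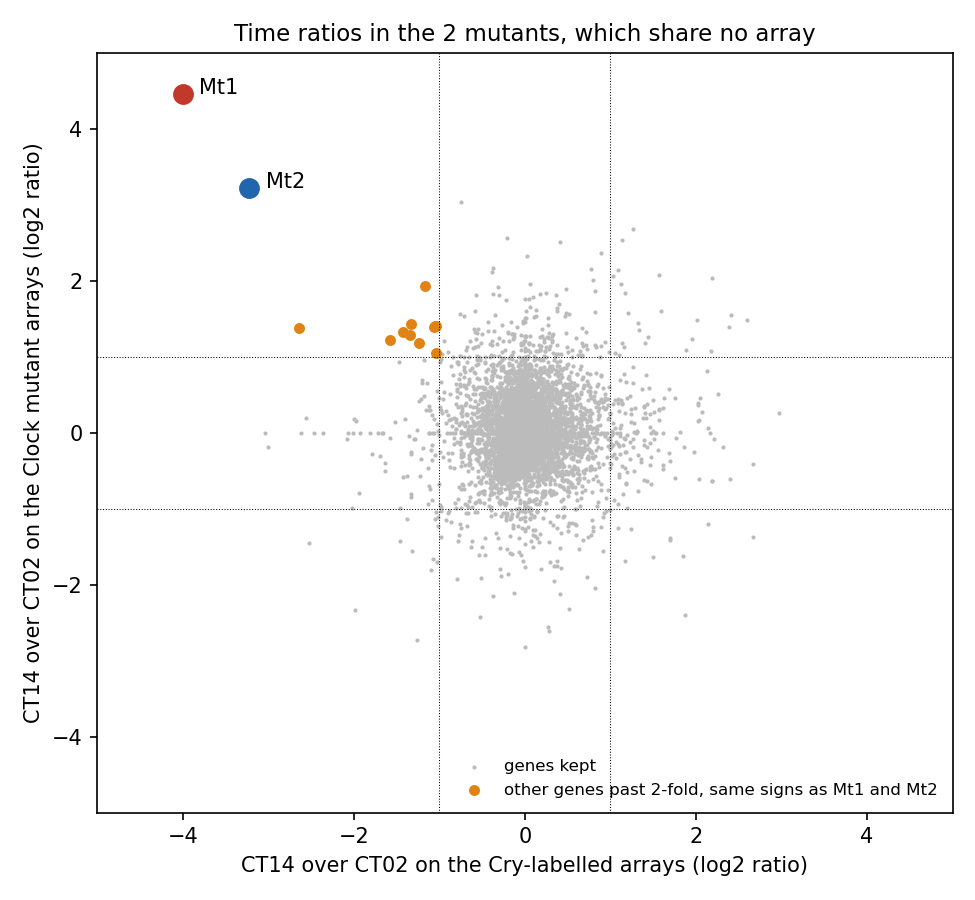
Log2 ratio of CT14 over CT02 in the Clock mutant (vertical axis) and on the Cry-labelled arrays (horizontal axis), 1 point per gene kept, with dotted lines at 2-fold and the other genes past 2-fold in the same directions in orange. Mt1, a bound on both axes, and Mt2 lie at the far upper left, higher at CT14 in the Clock mutant and lower at CT14 on the Cry-labelled arrays.

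The time comparisons of the 2 mutants use separate arrays. Of the 4844 genes, 13 were at least 2-fold higher at CT14 in the Clock mutant and at least 2-fold lower at CT14 on the Cry-labelled arrays, 10 had the reverse, 25 were higher in both and 13 lower in both. By the smaller of both sizes, Mt1 and Mt2 were the largest of the first 13. Zbtb16, a glucocorticoid-inducible transcription factor, was also among them, with a log2 ratio of at least 1.38 in the Clock mutant and -2.64 on the Cry-labelled arrays. Cebpd, an acute-phase transcription factor, had at least 1.40 in the Clock mutant and -1.04 on the Cry-labelled arrays. By the smaller of both sizes it was the last of the 13. The others, all placed above Cebpd, were G0s2, Amacr, Flot1, Arhgap39, Tagln2, Pnmt, Renbp, Ifnar2 and Spib.

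The other metallothioneins on the array did not share the pattern. Mt3 read 6206 scaled units in the Clock mutant at CT14 and 3971 at CT02, 6412 on the Cry-labelled array at CT14 and 6672 at CT02, and 6975 in wild type at CT14 and 5645 at CT02. Its lowest value was on the Clock mutant CT02 array, the dimmest one. The Mt3 probe set stood between the 84.6th and 90.6th percentiles of all probe sets on the 6 arrays. Mt4 was under the floor on all 6 arrays. Whether the Mt1 and Mt2 probes detect each other's transcripts was not tested, since probe sequences were not used here. For the same reason it was not tested whether the Mt3 signal in liver comes from Mt3 alone.

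The zinc and copper genes are given first, as those closest to metallothionein function. The zinc list of sensors and transporters had 10 genes kept of 25 listed, of which 0 were at least 2-fold apart between the times in the Clock mutant (7.74% of all genes kept), 1 on the Cry-labelled arrays (5.55%) and 0 in wild type (4.56%). In lists this short such counts are near the shares of all genes, and nothing is read from them. Its median log2 time ratio was -0.03 in the Clock mutant, 0.07 on the Cry-labelled arrays and -0.07 in wild type, against a median of 0 over all genes kept. The sign of the first turned with the values as deposited and that of the second with quantile normalization. The 1 gene past 2-fold was Slc39a4, a zinc importer, which was 2.76-fold higher at CT14 on the Cry-labelled arrays, with 8928 scaled units at CT14 and 3235 at CT02. It was thus lowest on the array where Mt1 and Mt2 were second brightest. Slc30a1, a zinc exporter and MTF1 target, read 1847 in the Clock mutant at CT14 and 1648 at CT02, 1538 on the Cry-labelled array at CT14 and 1397 at CT02, and 1780 in wild type at CT14 and 913 at CT02. Mtf1 itself was under the floor on all 6 arrays. The list of MTF1 targets had 4 genes kept of 6, of which 0 were past 2-fold in the mutants and 1 in wild type, Ndrg1, which was 3.06-fold lower at CT14. The copper list had 8 genes kept of 12, and 0 of them were at least 2-fold apart between the times in any genotype.

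**Figure D4:**
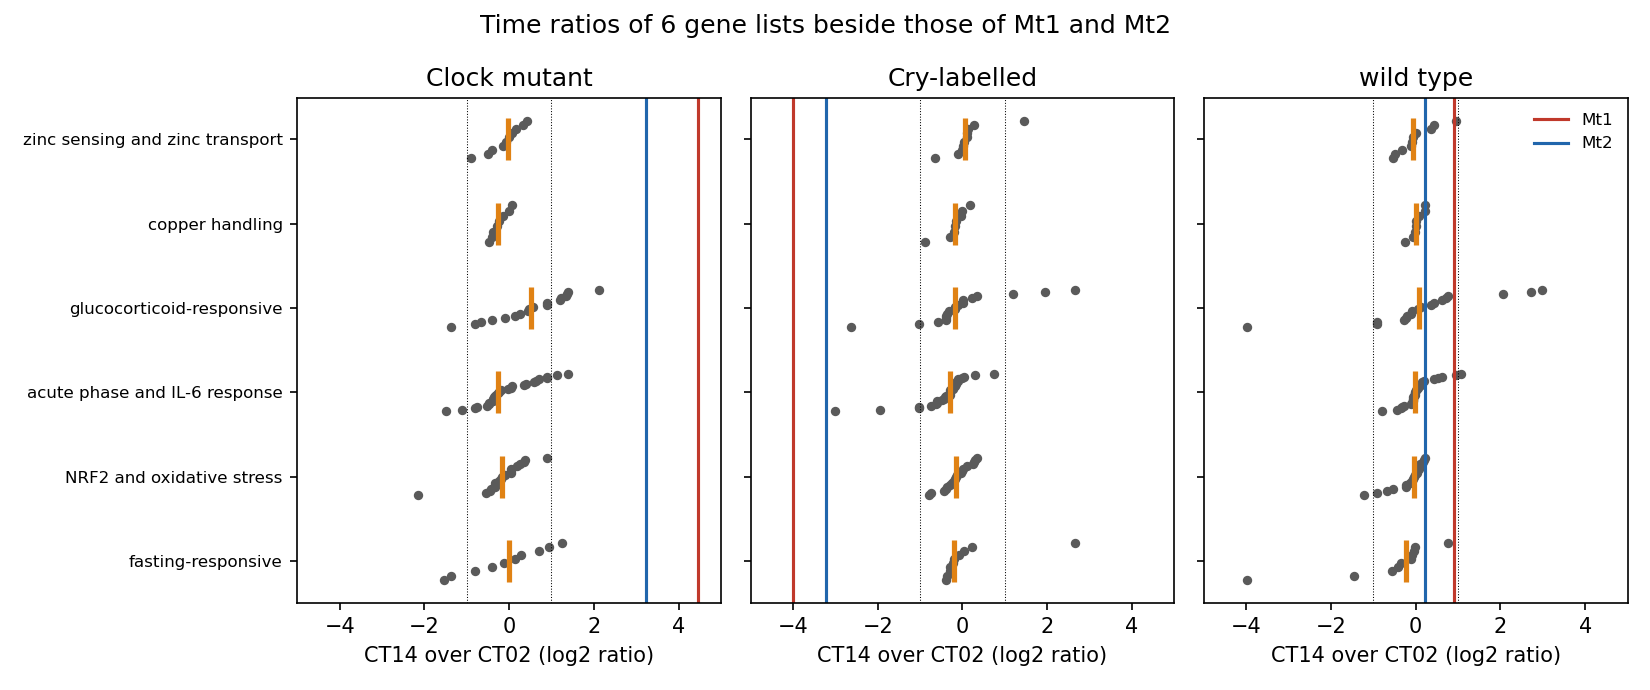
Log2 time ratios (CT14 over CT02) of the genes kept in 6 lists, by genotype, 1 point per gene, with short bars for list medians, dotted lines at 2-fold, and vertical lines for Mt1 (a bound) and Mt2. In the zinc and copper lists 1 gene lies past 2-fold, Slc39a4 on the Cry-labelled arrays.

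Lists for other known inducers of metallothionein were set beside the members, without Mt1 and Mt2 in them. The lists were read against the time counts past 2-fold over all 4844 genes kept. Those were 209 higher and 166 lower in the Clock mutant (7.74% together). On the Cry-labelled arrays they were 171 and 98 (5.55%), and in wild type 120 and 101 (4.56%). Past 2-fold at CT14 over CT02, the 18 glucocorticoid-responsive genes held 6 higher and 1 lower in the Clock mutant. They held 3 higher and 2 lower on the Cry-labelled arrays, and 3 higher and 1 lower in wild type. The 1 lower in the Clock mutant was Igfbp1 (2.59-fold), which is counted in the fasting list too. Higher on the Cry-labelled arrays were Igfbp1 (6.36-fold), Gadd45g (3.89-fold) and Dusp1 (2.29-fold), and lower were Zbtb16 and Cebpd. The median log2 time ratio of the 18 was 0.52 in the Clock mutant, -0.18 on the Cry-labelled arrays and 0.08 in wild type. The second was 0.03 with the values as deposited. Against wild type at CT14, their median in the Clock mutant was 0.01, with 2 higher and 0 lower (9.76% of all genes kept). Against wild type at CT02, it was 0.25 on the Cry-labelled array, with 6 higher and 1 lower (6.69%). Fkbp5, a chaperone induced by glucocorticoids, was at least 4.35-fold higher at CT14 in the Clock mutant, 1.31-fold lower on the Cry-labelled arrays and at least 7.95-fold higher in wild type. Fkbp5 was thus past 2-fold in wild type too, where Mt1 was at least 1.87-fold and Mt2 1.17-fold higher. Zbtb16 read 1575 in the Clock mutant at CT14 and 433, under the floor, at CT02, 712 on the Cry-labelled array at CT14 and 4441 at CT02, and 2085 in wild type at CT14 and 1928 at CT02. It was highest on the Cry-labelled CT02 array, 1 of the pair where the metallothioneins were bright, while its Clock mutant CT14 value lay under both wild-type values. Lpin1, a phosphatidate phosphatase, was 2.52-fold higher at CT14 in the Clock mutant, 1.49-fold lower on the Cry-labelled arrays and 6.61-fold higher in wild type. The list for the acute phase and the interleukin-6 response had 28 genes, receptors such as Il1r1 and Il6ra among them. Of these, 2 were higher and 2 lower at CT14 in the Clock mutant, and 0 higher and 4 lower on the Cry-labelled arrays. In wild type 1 was higher and 0 lower. The 2 higher in the Clock mutant were Il1r1 and Cebpd, and Cebpd is counted in the glucocorticoid list too. The 2 lower there were Hp, by 2.83-fold, and Saa3, with 927 scaled units at CT14 and 1997 at CT02. The median log2 ratio of this list was -0.25 in the Clock mutant, -0.30 on the Cry-labelled arrays and -0.02 in wild type. The sign of the first turned with the values as deposited and with quantile normalization, and that of the third with the values as deposited. Orm2, an acute-phase plasma protein, was 8.00-fold lower at CT14 on the Cry-labelled arrays, with 1066 at CT14 and 8530 at CT02, and read 954 and 1085 in the Clock mutant. The list for oxidative stress and its factor NRF2 had 19 genes kept, among them Nfe2l2, which encodes NRF2, and antioxidant enzymes such as Sod1. Of these genes 0 were higher and 1 lower in the Clock mutant, and 0 either way on the Cry-labelled arrays. In wild type 0 were higher and 1 lower. Of 10 fasting genes, 1 was higher and 2 lower in the Clock mutant, 1 higher and 0 lower on the Cry-labelled arrays, and 0 higher and 2 lower in wild type. Igfbp1, a hepatic protein that binds insulin-like growth factors, read 1652 in the Clock mutant at CT14 and 4284 at CT02, 7482 on the Cry-labelled array at CT14 and 1176 at CT02, and 188 (under the floor) for the wild-type CT14 array and 9554 for the CT02 one. On the mutant arrays it was lower where the metallothioneins were bright. Pdk4 was also lower at CT14 in the Clock mutant, with 630 scaled units against 1818 at CT02. On the Cry-labelled arrays Pdk4 read 795 at CT14 and 921 at CT02. Cyp4a14 and Cyp4a10 ran the other way from Igfbp1. Cyp4a14, a fatty acid hydroxylase, read 8437 in the Clock mutant at CT14 and 3541 at CT02, 15538 on the Cry-labelled array at CT14 and 19104 at CT02, and 4844 in wild type at CT14 and 13331 at CT02. It was 2.38-fold higher at CT14 in the Clock mutant and 1.23-fold lower on the Cry-labelled arrays. For the related Cyp4a10 these ratios were 1.63-fold higher and 1.05-fold lower.

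Markers of other cell types moved between the arrays too. The summed scaled level of 11 macrophage markers was 30271 in the Clock mutant at CT14 and 29443 at CT02, 41347 on the Cry-labelled array at CT14 and 53318 at CT02, and 37665 in wild type at CT14 and 39015 at CT02. The highest sum fell on 1 of the bright arrays, and the other bright array lay near the lowest. The summed level of 9 hepatocyte markers was lowest, at 86873, in the Clock mutant at CT14. It was highest, at 129130, on the Cry-labelled array at CT02, and lay between 107122 and 124352 on the other arrays. Single markers departed from these sums. Against wild type at CT02, 3 of the 11 macrophage markers were at least 2-fold higher on the Cry-labelled array and 1, C1qa, was lower. Of the 9 hepatocyte markers, 0 were higher and 1, Hnf4a, was lower (6.69% of all genes kept were that far apart). C1qa read 1508 on that array, against 4779 to 6165 on the others, and Hnf4a 871, against 4042 to 6563. Of 9 neutrophil markers, S100a8, S100a9, Ngp and Mpo were under the floor on all 6 arrays, and the summed level of all 9 lay between 6069 and 10733, highest in the Clock mutant at CT02, where the metallothioneins were dim. Camp read 5409 there, against 1928 to 2446 on the other arrays. Ly6g ran the other way, with 1406 in the Clock mutant at CT14 and 356, under the floor, at CT02. It read 766 on the Cry-labelled array at CT14 and 917 at CT02, and 856 in wild type at CT14 and 507, under the floor, at CT02. In these sums values under 0 were taken as 0 and other values under the floor as measured. The part of these in the metallothionein values was not tested.

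The genes most like Mt1 and Mt2 over the 6 arrays were found by Pearson's r of log2 values with the mean of both, over 1720 genes above the floor on at least 3 arrays and with a log2 range of at least 1. Every r is over the same 6 arrays and is a description. Between Mt1 and Mt2 themselves r was 0.98. Ang2, of the angiogenin ribonuclease family, had r of 0.98 and read 6799 in the Clock mutant at CT14 and 3487 at CT02, 3135 on the Cry-labelled array at CT14 and 7102 at CT02, and 3163 in wild type at CT14 and 3381 at CT02. It was bright on the same pair of arrays, and its probe set is named as matching a family of sequences. Next came Arhgap39 (0.96), Gpcpd1 (0.94), Il1r1, an interleukin-1 receptor (0.93), Tnfrsf1b, a tumour necrosis factor receptor (0.90), and Araf, a kinase (0.90). The most opposite were Stk24 (-0.98), Uck1 (-0.97), S1pr1 (-0.96), Dyrk1b (-0.96) and Asns (-0.95). A second probe set had an r of 0.32 for Stk24 and 0.13 for Uck1. Asns, the asparagine synthetase, read 547 in the Clock mutant at CT14 and 3207 at CT02, 2908 on the Cry-labelled array at CT14 and 797 at CT02, and 1781 in wild type at CT14 and 1823 at CT02. It was lowest on the bright pair of arrays, with the Clock mutant CT14 value under the floor. With Spearman's rho, 2 of the 10 most alike genes and 0 of the 5 most opposite were shared with these lists.

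**Figure D5:**
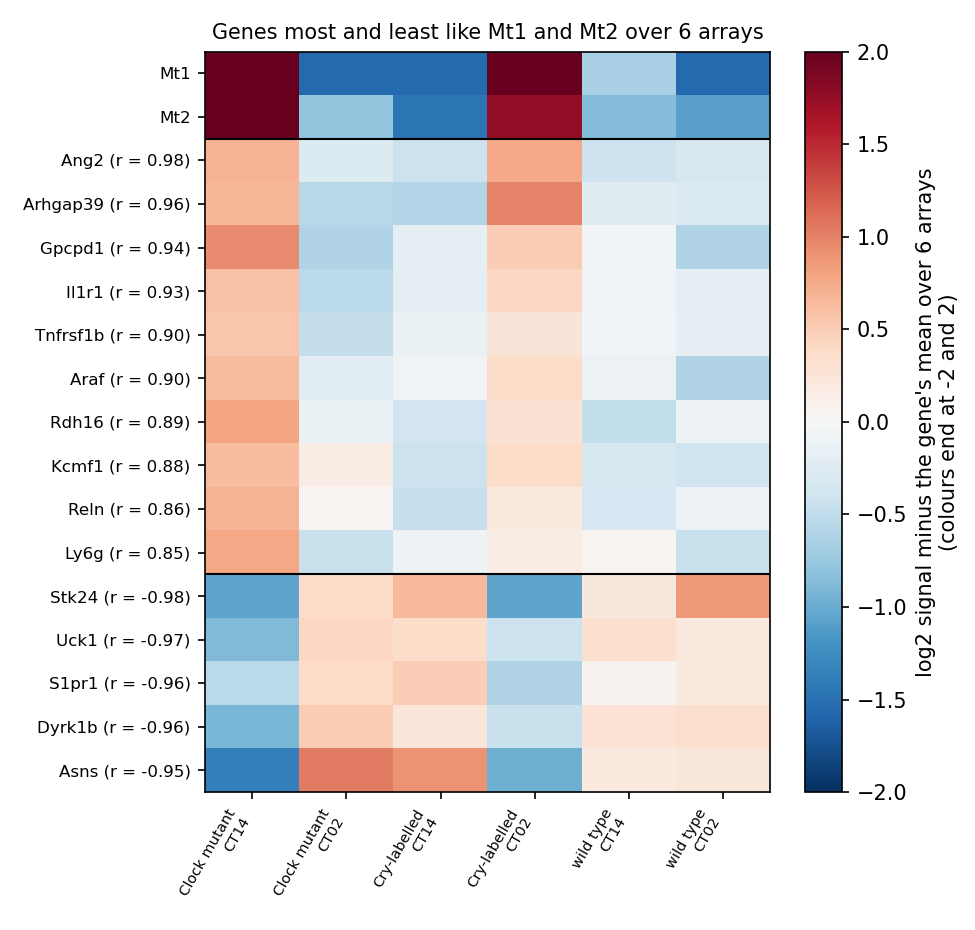
Log2 scaled signal, floored and centred on each gene's mean over the 6 arrays, for Mt1, Mt2, the 10 genes most like them and the 5 most opposite, with colours ending at -2 and 2. The alike genes are high and the opposite genes low on the Clock mutant CT14 and Cry-labelled CT02 arrays.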

How the data were processed

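Liver RNA was measured on 6 one-colour arrays, 1 per group, assigned by their titles. The deposited intensities are 1 whole number of either sign for each probe set on an array. Software, background subtraction and other earlier steps: not given in the sources used here. Each array was divided by its median ratio to the geometric mean of the 6, over 6065 probe sets, values under the pooled median (606) were set to it, and log2 was taken. Gene names came from the annotation table of the platform (10855 with 1 symbol, 396 with several, 1237 with none, 66 controls), and 10817 matched RefSeq (GRCm38.p6) by gene number, with 0 symbols updated. Probe sets without exactly 1 symbol were not used. The brightest probe set stood for a gene (8251), and genes with a mean under the floor were left out, which kept 4844.

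With 1 array per group no test was made. Ratios, counts at least 2-fold apart and list medians are descriptions. The rule for named genes takes the members, their family, the 10 genes most alike and 5 most opposite by r, the zinc genes kept, and up to 4 genes of each list with the largest range over the arrays. Other genes (such as Pnmt and the targeted genes) were chosen after their values were seen or as checks. The members, lists and rules were chosen with earlier results of these data known. Alternatives were no scaling, quantile normalization, lowess (span 0.3), other floors, filters, probe rules and a 3-fold threshold. Scaling without either mutant CT02 array was added after seeing the data, as were 2 settings for the alike genes. Scripts (Python 3.11.15, numpy 2.4.6, pandas 2.3.3, statsmodels 0.14.6) were tested on simulated data.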

Additional observations from a re-analysis of the deposited data

Results flagged for a closer look

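The time ratio (CT14 over CT02) of both metallothioneins ran in opposite directions in different genotypes. For Mt2 it was lower on the Cry-labelled arrays than in wild type (-3.45 log2 units) and higher in the Clock mutant than on the Cry-labelled arrays (6.45). For Mt1 the same differences were at most -4.91 and at least 8.46, both bounds set by the floor. These differences were not tested, since each rests on 1 pair of arrays per genotype.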

How the results depend on the processing

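No measured direction of Mt1 or Mt2 reversed under the alternatives run. Of the members' values, 105 moved by less than the margin used and 23 by more, and of the counts 55 stayed within 1.5 times and 38 did not. The ratios of Mt1 are bounds except that of the Clock mutant against wild type at CT14, and bounds follow the floor by construction. With the floor at the 25th percentile the log2 ratios of Mt1 were 8.86 (Clock mutant, CT14 over CT02), -8.40 (Cry-labelled, CT14 over CT02), 5.31 (wild type, CT14 over CT02), 8.40 and -5.31 (Cry-labelled over wild type at CT02 and CT14), and -8.40 and 8.86 (Clock mutant over Cry-labelled at CT02 and CT14), and its time ratio differed by -13.7 (Cry-labelled minus wild type) and 17.3 (Clock mutant minus Cry-labelled). With the floor at the 75th percentile those of Mt1 were 2.53 and -2.07 over time in the Clock mutant and the Cry-labelled arrays, 2.53 for the Clock mutant against wild type at CT14, 2.07 for Cry-labelled over wild type at CT02, -2.07 and 2.53 for the Clock mutant over Cry-labelled at CT02 and CT14, and 4.6 for the difference of the mutants. There Mt2 had -1.99 over time on the Cry-labelled arrays, 2.66 for the Clock mutant against wild type at CT14, 1.99 for Cry-labelled over wild type at CT02, 2.66 for the Clock mutant over Cry-labelled at CT14 and 4.65 for the difference of the mutants. This floor, 2312 scaled units, lay above every Mt1 and Mt2 value except those of the bright arrays. The values of both genes at this floor are therefore bounds and not changed estimates. With the values as deposited Mt1 had 1.04 over time in wild type and -1.04 for Cry-labelled over wild type at CT14, so the bound passed 2-fold. A ratio with both values under a floor could not be given.

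Counts of genes at least 2-fold apart depended on the settings. They are given for time in the Clock mutant, the Cry-labelled arrays and wild type, then for Clock mutant against wild type, Cry-labelled over wild type and Clock mutant over Cry-labelled, each at CT02 and CT14. With the floor at the 25th percentile they were 1394, 1158, 1008, 1826, 1550, 1304, 1049, 2130 and 1569. With the floor at the 75th percentile they were 59, 46, 51, 108, 112, 71, 46, 186 and 111. With the filter at the 75th percentile they were 122, 86, 73, 200, 181, 111, 63, 294 and 167, and with a 3-fold threshold 80, 74, 47, 151, 118, 99, 60, 226 and 124. With the values as deposited, 711 genes differed over time in the Clock mutant and 1032 for the Clock mutant against wild type at CT02. There the median of all genes shifted by 0.45 and -0.52 log2 units in these comparisons, and 93.1% and 5.62% of the calls were higher, against 55.7% and 36.1% after scaling. Of the 10 genes most alike and the 5 most opposite, 9 and 4 were shared with quantile normalization, 7 and 4 with lowess, 6 and 2 with the values as deposited, and 5 and 1 with the floor at the 25th percentile. No paired analysis was possible because each group is 1 array and the labels give no shared replicate numbers. Signal over background limits dim genes: between 4.75% and 8.05% of genes kept were at the floor on an array.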
